A study of Mus musculus with 8 samples.

Results

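The motile cilium axoneme gene families are the genes whose proteins build, assemble or regulate the microtubule core of beating cilia and sperm tails. Members were taken by name from the array's annotation: every probe set with exactly 1 gene symbol beginning with Dnah, Dnai, Dnaaf, Drc, Cfap, Rsph, Tekt, Spag or Spef and then a number. For each gene the probe set with the highest mean over all arrays was used. This gave 81 genes of the 19938 genes with such a probe set, and no symbol beginning with Dnai was among them. No filter on brightness was applied. Of the 81 members, 42 had a mean log2 value of 6 or more and are described first, beside the 12384 genes of the array that reached that level. The other 39 members were dimmer. Spag1 lay just inside the threshold with a mean of 6.02, and Dnah5 lay just outside it with 5.95.

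RNA came from the striatum of both sides of the brain in male C57BL/6 mice aged 6 weeks, and was hybridised to whole-transcript arrays, 1 array per mouse and 2 mice per group. The control group received saline into the abdomen for 4 weeks. The other 3 groups received MPTP, a toxin that kills dopamine neurons and is used to model parkinsonism, by the same route at 20 mg/kg of free base every 24 h for 4 weeks. The MPTP group was not needled. In the acupoint group needles also went in on both sides at GB34, to a depth of 3 mm, and LR3, to a depth of 1 mm. The non-acupoint group was needled to 3 mm on both hips, with the same handling. Both needled groups had 14 sessions, 48 h apart, so every needled mouse also carried the toxin. The labels give 9 mice for the control group and 9 for the MPTP group, of which 2 each were hybridised, so an n of 2 separate mice stands behind every group mean below.

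An axoneme is a ring of doublet microtubules around a central pair. Dynein arms on the doublets slide them past each other, the nexin links turn sliding into bending, and signals from the central pair through the radial spokes set the rhythm. In the forebrain, beating cilia of this kind are carried by the ependymal cells that line the ventricles, next to the striatum, while neurons and glia carry a single non-motile primary cilium and choroid plexus cells carry tufts of cilia. The genes are switched on by the transcription factors FOXJ1 and the RFX family. In bulk tissue, fewer cells of a type and less RNA per cell cannot be told apart.

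The deposited log2 array medians lay between 6.02 and 6.12 over all 35557 probe sets. Marker lists moved between single arrays as well as between groups. The mean of 9 striatal neuron markers was 2.19 below the controls in MPTP mouse 1 (-2.19) and between -0.69 and 0.38 in the other treated mice. The mean of 10 markers of thalamus, septum and pallidum was 2.32 above the controls in MPTP mouse 1 and 1.48 above in non-acupoint mouse 2. The mean of 15 choroid plexus markers was above the controls by 2.14 in MPTP mouse 1, 2.30 in acupoint mouse 1, 2.05 in non-acupoint mouse 1 and 2.81 in non-acupoint mouse 2, and lay between -0.17 and 0.09 in MPTP mouse 2 and acupoint mouse 2. The SD between the arrays of a group, over all genes, was 0.33 in the MPTP group and 0.13 in the control group. Of 8 testis markers, 0 had a mean of 6 or more, so the sperm-tail members are not accompanied by bright germ cell markers here.

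RefSeq promoters, the 250 bases before and 50 after a start site in GRCm38.p6, were on hand for 68 of the 81 members. They were searched on both strands for GTTGCCA, 1 arm of the X-box that RFX factors bind and itself contained in the full X-box, and for TGTTTAC, a forkhead core of the kind FOXJ1 binds. The X-box arm occurred in the promoters of 14 of the 68 members, 20.6%, against 4.70% of the 15563 measured genes with a promoter. Among members with a mean of 6 or more it occurred in 9 of 33, 27.3%, against 4.74% of the genes at that level. The full X-box was found in 0 of 68 members and in 0.0643% of measured genes, and the forkhead core in 4 of 68, 5.88%, against 3.54%. Of the 9 brighter members with a X-box arm, the 3 printed here also had an unadjusted p under 0.05 between the non-acupoint and MPTP groups, so they were chosen after their values were seen. The 250 bases upstream of each start are given 5′ to 3′ on the gene's own strand, and capitals mark TGGCAAC, the X-box arm read on the opposite strand. Cfap161 lies at chr7:83794840-83795089 on the minus strand, Cfap44 at chr16:44394549-44394798 on the plus strand and Cfap300 at chr9:8042876-8043125 on the minus strand.
Cfap161: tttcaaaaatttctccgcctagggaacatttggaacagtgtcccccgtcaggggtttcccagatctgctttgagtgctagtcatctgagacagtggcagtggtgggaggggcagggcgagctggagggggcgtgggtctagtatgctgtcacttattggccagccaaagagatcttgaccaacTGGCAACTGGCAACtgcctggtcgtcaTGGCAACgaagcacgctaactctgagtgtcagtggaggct
Cfap44: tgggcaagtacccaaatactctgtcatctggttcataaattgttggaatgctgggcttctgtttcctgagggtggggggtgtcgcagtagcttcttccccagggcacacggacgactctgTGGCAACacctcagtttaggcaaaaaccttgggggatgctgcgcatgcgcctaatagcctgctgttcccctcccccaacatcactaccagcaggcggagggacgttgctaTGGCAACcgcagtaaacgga
Cfap300: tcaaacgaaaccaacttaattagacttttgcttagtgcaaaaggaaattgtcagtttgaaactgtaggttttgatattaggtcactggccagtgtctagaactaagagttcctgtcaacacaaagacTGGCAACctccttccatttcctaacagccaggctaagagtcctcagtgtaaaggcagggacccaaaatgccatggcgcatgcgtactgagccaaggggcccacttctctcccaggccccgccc
The Cfap161 stretch holds 3 X-box arms, of which 2 touch each other, the Cfap44 stretch holds 2 and the Cfap300 stretch holds 1. A match of letters is a description of the sequence and not a measured binding site.

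Across the 42 brighter members the non-acupoint group tended to have the highest mean and the MPTP group the lowest, but single mice did not always follow. The non-acupoint group had the highest of the 4 group means for 31 of the 42, 73.8%, against 33.6% of all genes at that level. The MPTP group had the lowest mean for 22, 52.4%, against 23.9%. Both held together for 19 members, 45.2%, against 10.2%. By single array, non-acupoint mouse 2 was the highest of the 8 for 21 of the 42 members, against 17.4% of genes. MPTP mouse 1 was the lowest for 17, 40.5% against 24.3%. Acupoint mouse 2 was the lowest for 8, 19.0% against 19.6%, and MPTP mouse 2 for 6, 14.3% against 11.6%. The mean over the 42, relative to the controls, was -0.14 and -0.09 in the MPTP mice and -0.12 in acupoint mouse 2. It was 0.13 and 0.25 in the non-acupoint mice and 0.13 in acupoint mouse 1. Acupoint mouse 1 was above acupoint mouse 2 for 35 of the 42, 83.3%, against 57.4% of genes, so the spread inside the acupoint group also ran largely one way. Values were tested with limma's moderated F-test over the 4 groups, with Benjamini-Hochberg adjustment over all 21789 probe sets, and 0 members passed an adjusted p of 0.05. The background was also 0.0% of genes. At an unadjusted p under 0.05 there were 10 of the 42 brighter members, 23.8%, against a background of 3.21% of genes at that level, and 14 of all 81, 17.3%, against 3.87%. The smallest was that of Rsph4a (adjusted p = 0.94, F-test).

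**Figure D1:**
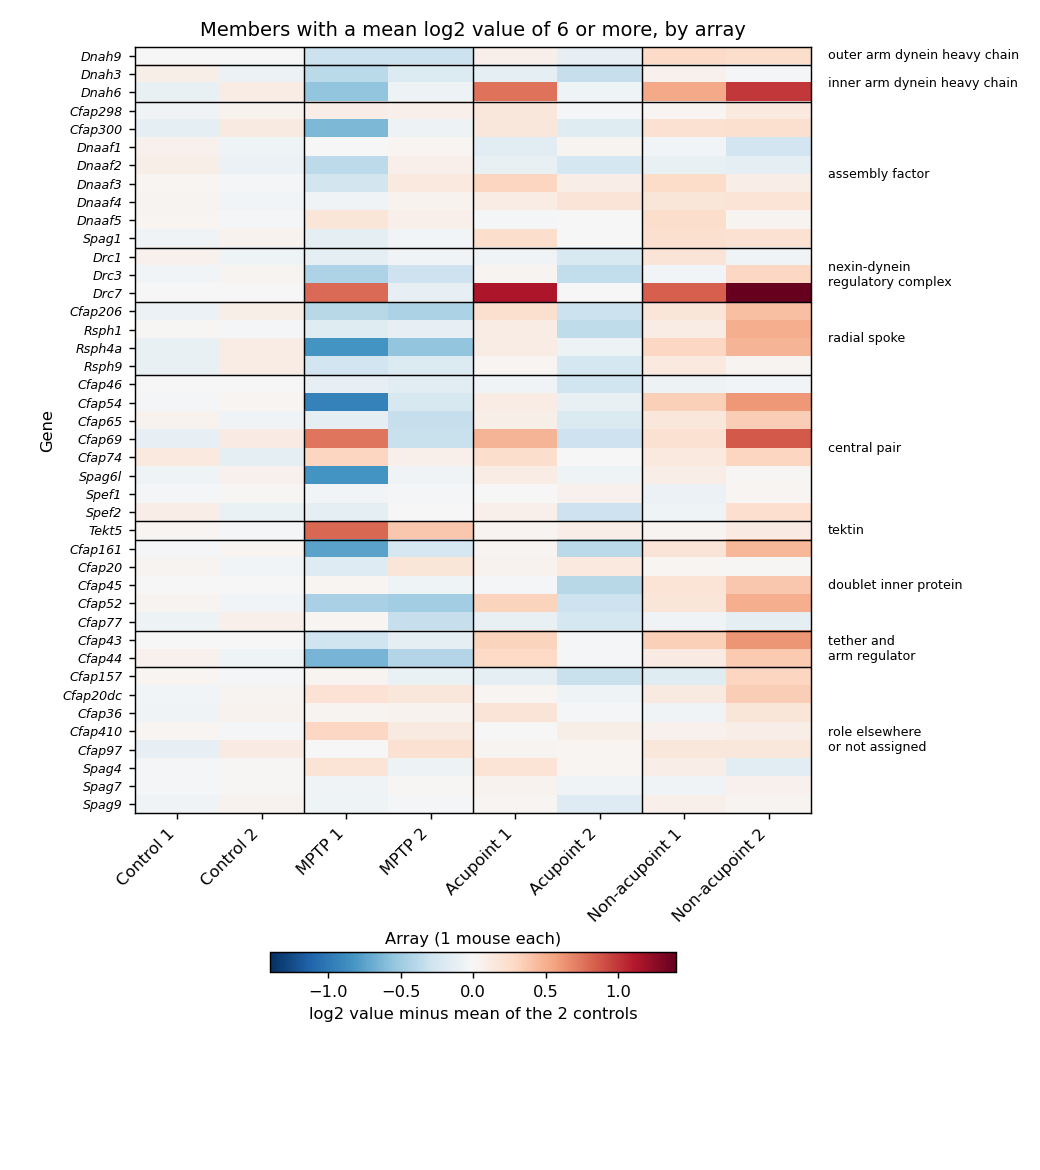
Values of the 42 members with a mean log2 of 6 or more in each of the 8 mice, as the log2 value minus the mean of the 2 controls, with genes ordered by role and blue below and red above the controls. The MPTP columns are mostly blue and the non-acupoint columns mostly red, with Rsph4a at 6.02 and 6.31 in the MPTP mice and 7.15 and 7.34 in the non-acupoint mice, while Drc7 and Cfap69 are red in MPTP mouse 1. The acupoint columns differ: the mean of the 42 is 0.13 in mouse 1 and -0.12 in mouse 2, against -0.14 and -0.09 in the MPTP mice.

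MPTP against control asks what the toxin alone did. Of the 42 brighter members, 30 had a lower and 12 a higher mean in the MPTP group. Both MPTP mice lay below both controls for 15 members, against a background of 11.1% of genes at that level, and above both for 5, against 18.5%. The median difference was -0.07, and that of all such genes was 0.02. limma called 0 of the members at an adjusted p of 0.05, as it did 0.0% of genes, and at an unadjusted p under 0.05 it had 5 members lower, against 1.71% of genes, and 1 higher, against 1.97%. The 5 were Rsph4a, Cfap44, Dnah9, Cfap54 and Cfap161, and the 1 was Tekt5. The count of lower members was 1 without control mouse 1 (background 0.856%), 2 without control mouse 2 (0.678%), 2 without MPTP mouse 1 (2.10%) and 9 without MPTP mouse 2 (12.6%). Without MPTP mouse 2, when the toxin-only group is a single mouse and the spread comes from the other groups, 1102 probe sets passed the adjusted threshold and 4 members were among them: Rsph4a, Cfap54 and Spag6l lower and Tekt5 higher. The striatal marker mean of the remaining mouse was -2.19 against the controls, and its part in those calls was not tested.

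Acupoint against MPTP and non-acupoint against MPTP ask what each form of needling added to the toxin. Both share the MPTP mice with each other and with the first comparison, so the same low MPTP values enter all of them. In the acupoint group 25 of the 42 members had a higher and 17 a lower mean than in the MPTP group, with a median difference of 0.06 against -0.04 for all genes at that level. Both acupoint mice were above both MPTP mice for 11 members, against 7.47% of genes, and below both for 5, against 19.1%. In the non-acupoint group 38 had a higher and 4 a lower mean, with a median difference of 0.21 against 0.01. Both non-acupoint mice were above both MPTP mice for 22 members, against 16.6% of genes, and below both for 3, against 16.0%. With each array centred on its median the split of higher against lower was 30 to 12 for the acupoint group and 31 to 11 for the non-acupoint group.

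By limma 0 members passed the adjusted threshold in either of these comparisons, against a background of 0.0%. At an unadjusted p under 0.05, 4 members were higher and 1 lower in the acupoint group, against 0.896% and 2.25% of genes. In the non-acupoint group 15 were higher and 1 lower, against 3.36% and 2.40%. The 15 became 8 without non-acupoint mouse 2, when the background was 1.88%, and 12 without MPTP mouse 1, when it was 7.59%. The 4 of the acupoint group became 2 without acupoint mouse 1 (background 0.549%), 2 without MPTP mouse 1 (1.44%) and 2 without either control (0.614%). They became 8 without acupoint mouse 2 (1.12%) and 8 without MPTP mouse 2 (11.9%). Without MPTP mouse 2 the adjusted threshold was passed by Rsph4a, Cfap54, Spag6l and Tekt5 in the acupoint comparison, and by these and Dnah5 in the non-acupoint comparison. The median over the 42 members in the acupoint comparison was -0.03 without acupoint mouse 1.

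**Figure D2:**
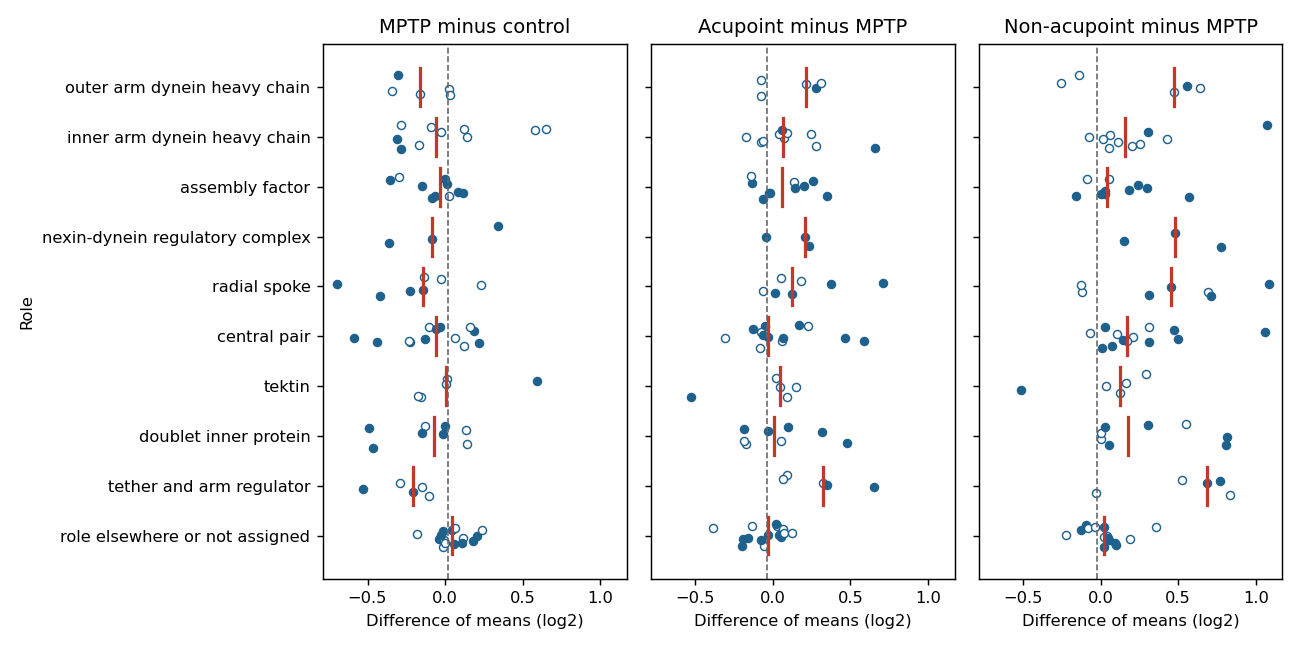
Difference of group means in log2 units for each of the 81 members, by role, for MPTP minus control, acupoint minus MPTP and non-acupoint minus MPTP. Filled points are members with a mean log2 of 6 or more, open points are dimmer ones, red bars are the median of a role and the dashed line is the median of all 19938 genes. In the non-acupoint panel the tether and arm regulators have a median of 0.68 and the genes with a role elsewhere 0.02.

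Over all 81 members, the dimmer ones included, the counts ran the same way, and limma again called 0 in every comparison against a background of 0.0%. Between MPTP and control 51 were lower and 30 higher. The groups did not overlap for 21 lower and 10 higher members, against 12.1% and 17.5% of all genes, and 5 were lower and 1 higher at an unadjusted p under 0.05, against 1.79% and 2.1%. Between acupoint and MPTP 49 were higher and 32 lower. Here 18 higher and 10 lower members had no overlap, against 8.74% and 19.8%, and 4 were higher and 2 lower at that p, against 1.13% and 2.73%. Between non-acupoint and MPTP 66 were higher and 15 lower, which was the most one-sided split of these 3. Here 33 higher and 6 lower members had no overlap, against 14.1% and 19.3%, and 22 were higher and 1 lower at that p, against 2.87% and 3.53%. Of the 39 dimmer members alone, 21 were lower and 18 higher between MPTP and control, with a median of -0.01. At that p 0 were lower or higher, against 145 and 174 of the 7554 genes below 6. Between acupoint and MPTP 24 were higher and 15 lower, 0 and 1 at that p, against 114 and 266 genes. Between non-acupoint and MPTP 28 were higher and 11 lower, 7 and 0 at that p, against 156 and 407 genes.

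The outer dynein arms carry the heavy-chain motors that set beat frequency, and 5 of their heavy chains were measured. Dnah9, the only one with a mean of 6 or more, read 6.26 and 6.27 in the controls, 5.96 and 5.96 in the MPTP mice, 6.33 and 6.15 in the acupoint mice and 6.53 and 6.51 in the non-acupoint mice. The 2 acupoint mice differed by 0.18 and the mice of each other pair by much less, and the MPTP pair lay below and the non-acupoint pair above all other mice. Dnah9 differed by -0.30 (SE 0.11) between MPTP and control and by 0.56 (SE 0.11, limma adjusted p = 0.56) between non-acupoint and MPTP. Dnah5, the heavy chain most often mutated in primary ciliary dyskinesia, was at 5.94 and 6.00 in the controls, 5.45 and 5.81 in the MPTP mice, 6.06 and 5.82 in the acupoint mice and 6.19 and 6.35 in the non-acupoint mice. Its non-acupoint values were also the highest pair and its MPTP values the lowest. Dnah11 differed by 0.47 (SE 0.16) between non-acupoint and MPTP. Dnah8 and Dnah17, best known from sperm tails, ran from 4.48 to 4.85 and from 5.36 to 5.96 over the 8 mice, and both had their lowest value in non-acupoint mouse 2. Of the 5, 2 had an unadjusted F-test p under 0.05, against 3.87% of all genes.

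The inner dynein arms shape the bend, and 10 of their heavy chains were measured, 2 of them with a mean of 6 or more. Dnah6 was at 5.97 and 6.17 in the controls, 5.51 and 6.00 in the MPTP mice, 6.83 and 6.00 in the acupoint mice and 6.60 and 7.06 in the non-acupoint mice. Acupoint mouse 1 and both non-acupoint mice stood above the rest. Its difference was 1.07 (SE 0.30, limma adjusted p = 0.63) between non-acupoint and MPTP and 0.76 (SE 0.30) between non-acupoint and control. All 3 probe sets of Dnah6 showed the former, with differences from 1.05 to 1.36. Dnah3 was at 7.31 and 7.14 in the controls, 6.85 and 7.03 in the MPTP mice, 7.09 and 6.90 in the acupoint mice and 7.29 and 7.20 in the non-acupoint mice, so the controls and the non-acupoint mice interleaved. Dnah12, a dimmer inner arm chain, differed by 0.43 (SE 0.13) between non-acupoint and MPTP.

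Dnah3 and Spef2 are spread over many probe sets on this array, 33 and 22, which read different stretches of 1 transcript in the same RNA and are not replicates. For Dnah3 29 of the 33 were higher in the non-acupoint than in the MPTP group, with a median of 0.50, and 32 of 33 were lower in MPTP than in control, with a median of -0.25. Of all probe sets 46.0% were higher in the former and 46.0% lower in the latter comparison. For Spef2, which encodes a central pair protein, all 22 were higher in the non-acupoint than in the MPTP group, with a median of 0.73, while the brightest one, used for the gene here, differed by 0.14 (SE 0.17). Averaged over its probe sets, Spef2 differed by 0.69 (SE 0.20, limma adjusted p = 0.68) and Dnah3 by 0.51 (SE 0.13, limma adjusted p = 0.64). The brightest probe set of Spef2 therefore showed a smaller difference than most of the others.

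Radial spokes relay the central pair's state to the dynein arms. Rsph4a, a spoke head protein, read 6.76 and 6.97 in the controls, 6.02 and 6.31 in the MPTP mice, 6.96 and 6.79 in the acupoint mice and 7.15 and 7.34 in the non-acupoint mice. The MPTP pair lay well below every other mouse, the non-acupoint pair above every other, and the control and acupoint pairs interleaved. Rsph4a differed by -0.70 (SE 0.15, limma adjusted p = 0.96) between MPTP and control, by 0.71 (SE 0.15, adjusted p = 0.92) between acupoint and MPTP and by 1.08 (SE 0.15, adjusted p = 0.38) between non-acupoint and MPTP. Leaving out each mouse in turn kept the last between 0.94 and 1.23. Rsph1, another spoke head protein, was at 6.74 and 6.71 in the controls, 6.56 and 6.62 in the MPTP mice, 6.83 and 6.37 in the acupoint mice and 6.84 and 7.24 in the non-acupoint mice. Its highest pair was again non-acupoint, but its lowest single value was in acupoint mouse 2. Cfap206, which docks a spoke to the doublet, was at 6.09 and 6.26 in the controls, 5.79 and 5.73 in the MPTP mice, 6.40 and 5.88 in the acupoint mice and 6.35 and 6.60 in the non-acupoint mice. Rsph9 differed less, by 0.32 (SE 0.13) between non-acupoint and MPTP. The sperm paralog Rsph6a and Rsph14 were dim and differed by -0.12 each in that comparison. Of the 7 spoke members, 3 had an unadjusted F-test p under 0.05, against 3.87% of all genes. They were Rsph4a, Cfap206 and the dimmer Cfap61, of which the last is named after its values were seen.

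The central pair complex had 13 measured members, of which 8 had a mean of 6 or more. Cfap54, a large scaffold of a central pair projection, was at 7.53 and 7.59 in the controls, 6.61 and 7.33 in the MPTP mice, 7.66 and 7.46 in the acupoint mice and 7.90 and 8.17 in the non-acupoint mice. MPTP mouse 1 stood far below the rest, MPTP mouse 2 was still below the other 6, and the non-acupoint pair was highest. Its difference was 1.06 (SE 0.23, limma adjusted p = 0.59) between non-acupoint and MPTP, and 0.70 without MPTP mouse 1. Between MPTP and control it was -0.59 (SE 0.23), and -0.23 without MPTP mouse 1, so much of that difference came from 1 mouse. Spag6l, a central apparatus protein, was at 7.51 and 7.63 in the controls, 6.73 and 7.52 in the MPTP mice, 7.67 and 7.50 in the acupoint mice and 7.66 and 7.58 in the non-acupoint mice. There MPTP mouse 1 alone was low and the other 7 mice lay between 7.50 and 7.67. Cfap65 differed by 0.48 (SE 0.14) between non-acupoint and MPTP. Cfap46 and Spef1 varied little, and ran from 5.92 to 6.20 and from 6.78 to 6.92 over the 8 mice. The dimmer Spag6, Spag16 and Spag17 differed by -0.07, 0.21 and 0.31 between non-acupoint and MPTP.

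The tether and arm regulators hold an inner arm dynein in place or dock to arms. Of these 5 members 4 had an unadjusted F-test p under 0.05, against 3.87% of all genes. Cfap44, a subunit of the tether of inner arm dynein f, was at 6.42 and 6.29 in the controls, 5.71 and 5.95 in the MPTP mice, 6.64 and 6.33 in the acupoint mice and 6.48 and 6.72 in the non-acupoint mice. Both MPTP mice were below all 6 others. The acupoint pair overlapped the controls and the non-acupoint pair, while the non-acupoint pair lay above the controls. The difference was -0.53 (SE 0.16) between MPTP and control, 0.66 (SE 0.16, limma adjusted p = 0.92) between acupoint and MPTP and 0.77 (SE 0.16, limma adjusted p = 0.59) between non-acupoint and MPTP. Its partner Cfap43 was at 6.68 and 6.66 in the controls, 6.39 and 6.54 in the MPTP mice, 6.99 and 6.64 in the acupoint mice and 7.01 and 7.29 in the non-acupoint mice. The non-acupoint pair was highest and the MPTP pair lowest, and all 5 probe sets of Cfap43 were higher in the non-acupoint than in the MPTP group. The dimmer Cfap70, which binds outer arms, was at 5.80 and 5.76 in the controls, 5.29 and 5.68 in the MPTP mice, 6.01 and 5.60 in the acupoint mice and 6.11 and 6.53 in the non-acupoint mice. Cfap57, also dim and named after its values were seen, differed by 0.53 (SE 0.13) between non-acupoint and MPTP, and Cfap100 by -0.03 (SE 0.15).

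**Figure D3:**
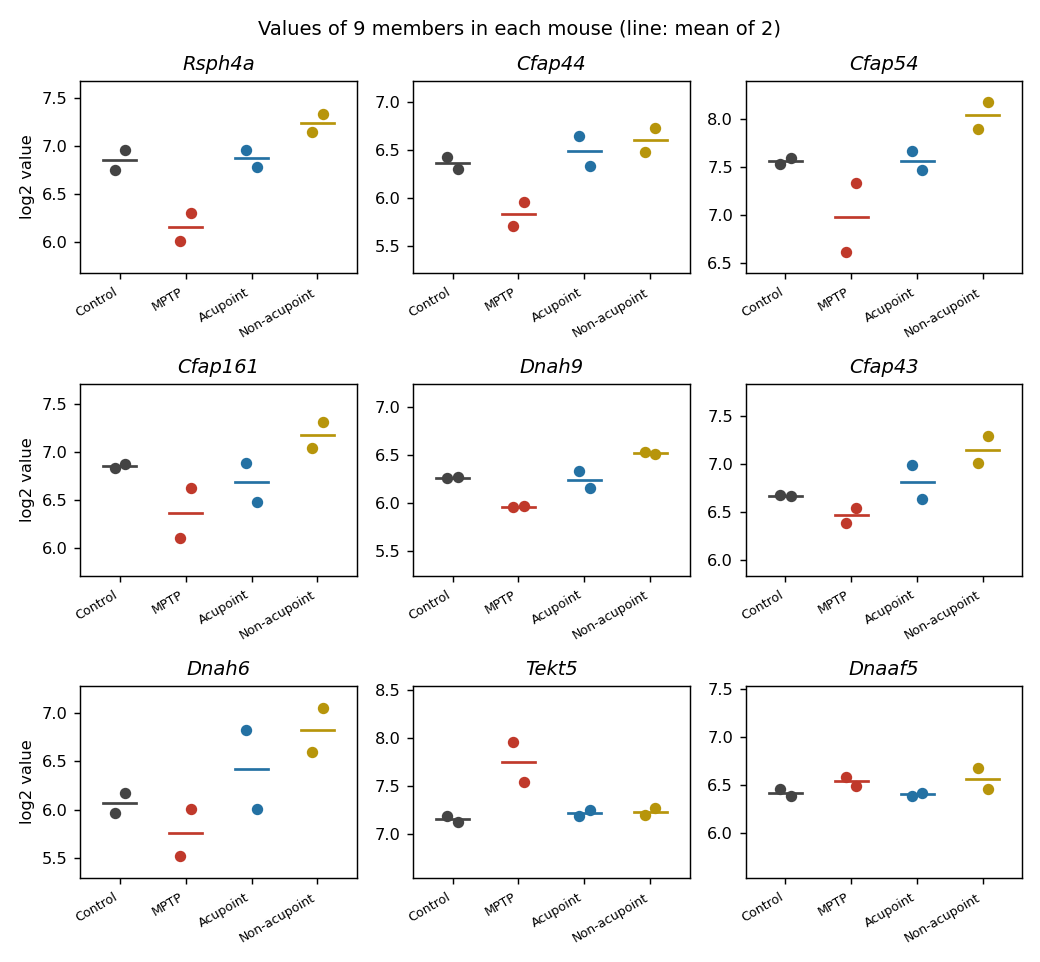
Log2 values of 9 members in each mouse, 1 point per mouse with mouse 1 on the left and a line at the mean of 2, in panels that all span 2 log2 units on the vertical axis. Rsph4a, Cfap44, Cfap54, Cfap161, Dnah9, Cfap43 and Dnah6 have their lowest mean in the MPTP group, Tekt5 has its highest there at 7.96 and 7.54, and the assembly factor Dnaaf5 stays between 6.39 and 6.68.

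Proteins inside or between the doublet microtubules brace the wall of the axoneme, and 8 were measured. Cfap161, in the lumen of the A tubule, read 6.83 and 6.87 in the controls, 6.11 and 6.62 in the MPTP mice, 6.88 and 6.48 in the acupoint mice and 7.03 and 7.31 in the non-acupoint mice. The non-acupoint pair was highest, both MPTP mice were below both controls, and acupoint mouse 2 lay between the MPTP mice. Cfap161 differed by 0.81 (SE 0.21, limma adjusted p = 0.63) between non-acupoint and MPTP. Cfap52, a B tubule protein, was at 7.18 and 7.10 in the controls, 6.69 and 6.66 in the MPTP mice, 7.45 and 6.85 in the acupoint mice and 7.31 and 7.65 in the non-acupoint mice, which put the MPTP pair below all others. Its difference was 0.81 (SE 0.20) between non-acupoint and MPTP and 0.47 (SE 0.20, limma adjusted p = 0.92) between acupoint and MPTP. Cfap45, also of the B tubule, was at 6.36 and 6.35 in the controls, 6.38 and 6.29 in the MPTP mice, 6.34 and 5.96 in the acupoint mice and 6.55 and 6.74 in the non-acupoint mice. For this gene the MPTP and control pairs overlapped and only the non-acupoint pair stood above them. Cfap20, which closes the junction between the tubules and is also found outside motile cilia, ran from 8.65 to 9.00, with both extremes in the MPTP group. The dimmer Cfap126 and Cfap53 differed by 0.55 (SE 0.26) and 0.00 (SE 0.21) between non-acupoint and MPTP.

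Tektins form filaments along the doublet wall, and Tekt5 ran the other way from most members. It was at 7.19 and 7.13 in the controls, 7.96 and 7.54 in the MPTP mice, 7.20 and 7.25 in the acupoint mice and 7.20 and 7.28 in the non-acupoint mice. The MPTP pair was above all 6 others, which lay within 7.13 and 7.28. The difference was 0.59 (SE 0.15, limma adjusted p = 0.96) between MPTP and control, -0.53 (SE 0.15, adjusted p = 0.92) between acupoint and MPTP and -0.52 (SE 0.15, adjusted p = 0.64) between non-acupoint and MPTP. Without MPTP mouse 1 the first was 0.38. The other 4 tektins were dim. Of these Tekt1 differed by 0.29 (SE 0.11) and Tekt2 by 0.16 (SE 0.18) between non-acupoint and MPTP, both opposite in sign to Tekt5.

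Factors that assemble dynein arms in the cytoplasm before they enter the cilium had the smallest median difference between non-acupoint and MPTP among the roles tied to the axoneme. Of 10 measured, 0 had an unadjusted F-test p under 0.05, against 3.87% of all genes, a share too small to set 0 of 10 apart. Their median was -0.03 between MPTP and control and 0.04 between non-acupoint and MPTP. In the latter 8 were higher and 2 lower, with 3 higher and 1 lower without overlap, against 14.1% and 19.3% of all genes. At an unadjusted limma p under 0.05, 2 were higher and 0 lower there, against 2.87% and 3.53%. Dnaaf1 was at 6.26 and 6.13 in the controls, 6.19 and 6.22 in the MPTP mice, 6.05 and 6.23 in the acupoint mice and 6.16 and 5.93 in the non-acupoint mice, so its lowest value was in non-acupoint mouse 2. Dnaaf2, Dnaaf3, Dnaaf4 and Dnaaf5 differed by 0.03, 0.24, 0.18 and 0.03 between non-acupoint and MPTP. Cfap300 differed most of the 10, at 7.24 and 7.49 in the controls, 6.74 and 7.29 in the MPTP mice, 7.53 and 7.19 in the acupoint mice and 7.57 and 7.59 in the non-acupoint mice. Its non-acupoint pair was highest and MPTP mouse 1 lowest, with a difference of 0.57 (SE 0.20, limma adjusted p = 0.74) between those groups.

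The 15 members whose role lies elsewhere or is not assigned had small median differences. Of these 0 had an unadjusted F-test p under 0.05, against 3.87% of all genes, a share too small to set 0 of 15 apart. Their median was 0.04 between MPTP and control, -0.03 between acupoint and MPTP and 0.02 between non-acupoint and MPTP. Spag9, a scaffold for JNK signalling and motor transport that shares only the name, ran from 10.48 to 10.73 over the 8 mice. Cfap410, found at the base of primary cilia, was at 7.57 and 7.51 in the controls, 7.82 and 7.67 in the MPTP mice, 7.55 and 7.62 in the acupoint mice and 7.60 and 7.63 in the non-acupoint mice. Its MPTP pair was the highest, by 0.21 (SE 0.11) over control. Cfap20dc likewise had a higher mean in MPTP than in control, by 0.18 (SE 0.11), and Cfap157 differed by -0.19 (SE 0.17) between acupoint and MPTP.

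The nexin-dynein regulatory complex links neighbouring doublets, and its 3 measured members did not vary together. Drc3 was at 6.88 and 6.96 in the controls, 6.49 and 6.63 in the MPTP mice, 6.96 and 6.57 in the acupoint mice and 6.88 and 7.21 in the non-acupoint mice, with its lowest mean in the MPTP and its highest in the non-acupoint group. Drc1, at the base of the complex, ran only from 5.92 to 6.31. Drc7 was at 6.21 and 6.23 in the controls, 7.01 and 6.10 in the MPTP mice, 7.35 and 6.23 in the acupoint mice and 7.05 and 7.61 in the non-acupoint mice. Drc7 was thus high in mouse 1 of each treated group and in non-acupoint mouse 2, and low in the other 4 mice, so mice of 1 group lay on both sides. Cfap69, a central pair protein, had the same high mice: it was at 6.19 and 6.42 in the controls, 7.06 and 5.99 in the MPTP mice, 6.77 and 6.02 in the acupoint mice and 6.51 and 7.16 in the non-acupoint mice.

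Those 4 mice are the ones in which the choroid plexus marker mean was at least 2.05 above the controls. With that mean as a covariate in the fit, the difference of Drc7 between non-acupoint and control went from 1.12 (SE 0.41) to -0.01 (SE 0.18), and that of Cfap69 from 0.54 (SE 0.40) to -0.50 (SE 0.23). Between non-acupoint and MPTP, Drc7 had group means of 7.33 and 6.56, and its difference with the covariate was 0.11 (SE 0.15). Cfap69 had group means of 6.84 and 6.52 there, and its difference with the covariate was -0.30 (SE 0.19). In the same comparison the covariate moved the following members less. Rsph4a was 1.08 without and 1.10 with the covariate, Cfap44 was 0.77 and 0.73, Dnah9 was 0.56 and 0.51, and Cfap54 was 1.06 and 1.20. With the covariate, limma's adjusted p was 0.41 for each of these. Of the 42 members, 12 were then higher between non-acupoint and MPTP at an unadjusted p under 0.05, against 7.57% of genes, and 7 were lower between MPTP and control, against 2.18%.

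**Figure D4:**
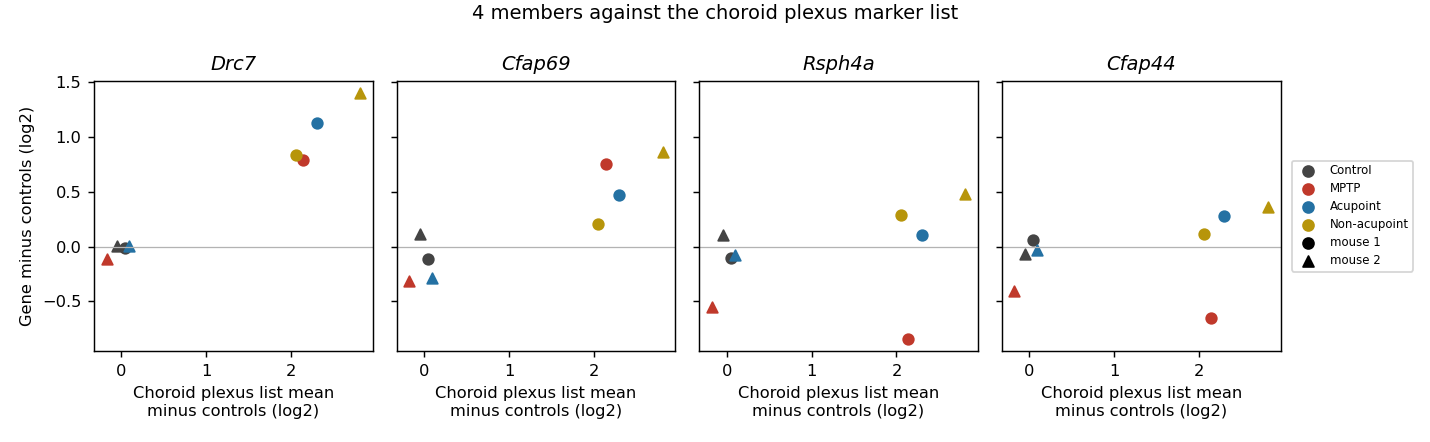
Drc7, Cfap69, Rsph4a and Cfap44 in each mouse, as log2 value minus the mean of the controls, against the mean of the choroid plexus marker list minus its control mean, also in log2 units. Drc7 is high only in the 4 mice with a marker mean of 2.05 or more, whereas Rsph4a and Cfap44 are low in both MPTP mice, whose marker means are 2.14 and -0.17.

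Acupoint against non-acupoint asks whether the needling site mattered. Of the 42 brighter members, 36 had a lower and 6 a higher mean in the acupoint group, with a median difference of -0.18 against -0.05 for all genes at that level. Both acupoint mice were below both non-acupoint mice for 16 members, against a background of 27.4% of genes, and above both for 1, Cfap20, against 12.0%. limma called 0 members at an adjusted p of 0.05, as it did 0.0% of genes. At an unadjusted p under 0.05, 4 were lower, against 1.89% of genes: Cfap45 by -0.49 (SE 0.15), Dnah9 by -0.28 (SE 0.11), Rsph4a by -0.37 (SE 0.15) and Cfap161 by -0.49 (SE 0.21), each with a limma adjusted p of 0.96. Rsph1, a spoke head protein, differed by -0.44 (SE 0.19). The median over the 42 members was -0.05 without acupoint mouse 2 and -0.27 without acupoint mouse 1, so its size turned on which acupoint mouse was used. Over all 81 members 29 were lower and 4 higher without overlap, against 22.4% and 14.5% of all genes, and 8 were lower and 0 higher at an unadjusted p under 0.05, against 2.01% and 1.49%.

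Against the saline controls, the acupoint group was level on average, but its 2 mice lay on opposite sides. The mean over the 42 brighter members, relative to the controls, was 0.13 in acupoint mouse 1 and -0.12 in acupoint mouse 2. Leaving out each array in turn, the median difference of the 42 ran from -0.07 to 0.07. Of the 42 brighter members 22 had a higher and 20 a lower mean, the median difference was 0.00 against -0.02 for all genes at that level, and the groups did not overlap for 6 in each direction, against 13.2% of genes higher and 21.5% lower. limma called 0 at an adjusted p of 0.05 (background 0.0%) and 0 at an unadjusted p under 0.05 in either direction (background 0.541% higher and 1.15% lower). The brighter members nearest to that were Dnah3, with a difference of -0.22 (SE 0.13), Cfap46, with -0.16 (SE 0.11), and Dnaaf4, with 0.14 (SE 0.10). Over all 81 members 11 were higher and 6 lower without overlap, against 12.3% and 20.8% of all genes, and 0 reached an unadjusted p under 0.05, against 0.782% higher and 1.57% lower.

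The non-acupoint group lay above the controls for 36 of the 42, with a median difference of 0.15 against 0.02 for all genes at that level. The groups did not overlap for 23 higher and 2 lower members, against 30.5% and 21.1% of genes. limma called 0 at an adjusted p of 0.05 (background 0.0%), and at an unadjusted p under 0.05 it had 5 higher and 0 lower, against 3.82% and 1.64%. The 5 were Drc7, Dnah6, Cfap43 with 0.48 (SE 0.15), Rsph4a with 0.39 (SE 0.15) and Dnah9 with 0.26 (SE 0.11), each with a limma adjusted p of 0.81. With the choroid plexus marker mean as a covariate the median over the 42 members was 0.02. Of the 42, 0 then had an unadjusted p under 0.05, none of these 5 among them, against 3.75% of genes higher. Drc7 was then at -0.01 (SE 0.18) and Dnah9 at 0.18 (SE 0.15). Rsph4a was at 0.42 (SE 0.22), Cfap43 at 0.34 (SE 0.22) and Dnah6 at 0.53 (SE 0.43). Apart from Drc7, each of the 5 had a larger SE with the covariate than without it. Over all 81 members 38 were higher and 3 lower without overlap, against 23.5% and 22.2% of all genes, and 8 were higher and 0 lower at an unadjusted p under 0.05, against 3.15% and 2.57%.

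All 6 MPTP-treated mice together overlapped the 2 controls for nearly every member. Of the 42, Tekt5 was the 1 member with every treated mouse above both controls, against a background of 4.16% of genes, and Cfap46 the 1 with every treated mouse below, against 3.31%. For Tekt5 the margin was very small in mouse 1 of each needled group. It read 7.1959 in acupoint mouse 1 and 7.2 in non-acupoint mouse 1, against 7.1895 in control mouse 1. limma called 0 at an adjusted p of 0.05 (background 0.0%) and 0 at an unadjusted p under 0.05, against 1.82% higher and 1.24% lower. Over all 81 members 2 lay above and 1 below both controls in every treated mouse, against 3.42% and 3.41% of all genes, and 0 reached an unadjusted p under 0.05, against 1.69% higher and 1.59% lower.

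Other genes of the axoneme and of its transcriptional program, which the naming rule does not reach, were read from a fixed list of 57, of which 51 were measured and 34 had a mean of 6 or more. limma called 0 of these in any comparison. Between MPTP and control 40 of 51 were lower, 3 of them at an unadjusted p under 0.05, against 1.79% of all genes, and 11 were higher, 0 of them at that p. Between acupoint and MPTP 39 were higher, 4 at that p, against 1.13%. Between non-acupoint and MPTP 43 were higher, 17 at that p, against 2.87%, and 8 were lower, 0 at that p, with a median of 0.28. Enkur, an adaptor on the doublet wall, was at 6.57 and 6.89 in the controls, 5.17 and 6.33 in the MPTP mice, 6.61 and 6.31 in the acupoint mice and 6.63 and 6.95 in the non-acupoint mice, with MPTP mouse 1 lowest by a wide margin. Foxj1, the master regulator of motile cilia, was at 6.65 and 6.58 in the controls, 6.58 and 6.49 in the MPTP mice, 6.72 and 6.52 in the acupoint mice and 6.81 and 6.81 in the non-acupoint mice. It differed by -0.08 (SE 0.11) between MPTP and control and by 0.27 (SE 0.11, limma adjusted p = 0.76) between non-acupoint and MPTP. Hydin, of the central pair, differed by 0.51 (SE 0.13) and Dnali1, an inner arm light chain, by 0.57 (SE 0.15) in the latter. Other regulators on the list did not all follow Foxj1. Rfx2 was at 6.66 and 6.54 in the MPTP mice and 6.41 and 6.33 in the non-acupoint mice. Mcidas was at 6.51 and 6.31 in the MPTP mice and 6.38 and 6.20 in the non-acupoint mice. Ccno, Deup1 and Trp73 also had a lower non-acupoint than MPTP mean, while Rfx3, Rfx4 and Gmnc had a higher one.

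Ependymal cell markers ran with the members. The list holds 15 genes, all measured and 9 with a mean of 6 or more, and 3 of them (Foxj1, Ak7 and Dynlrb2) are also in the list above. Relative to the controls, its mean was -0.47 and -0.29 in the MPTP mice, 0.07 and -0.09 in the acupoint mice and 0.08 and 0.26 in the non-acupoint mice. The MPTP pair was thus lowest and non-acupoint mouse 2 highest. Between MPTP and control 14 of 15 were lower, 8 at an unadjusted p under 0.05, against 1.79% of all genes. Between acupoint and MPTP 14 were higher, 9 at that p, against 1.13%, and 1 was lower, also at that p, against 2.73%. Between non-acupoint and MPTP 13 were higher, 12 at that p, against 2.87%, with 0 of the list called by limma at an adjusted p of 0.05 in any of these. The dim Hdc and 1700012B09Rik had a lower mean there. Hdc was at 5.78 and 5.89 in the MPTP mice and 5.83 and 5.67 in the non-acupoint mice. 1700012B09Rik was at 4.72 and 4.78 in the MPTP mice and 4.61 and 4.53 in the non-acupoint mice. Tmem212 was at 7.02 and 7.24 in the controls, 6.11 and 6.65 in the MPTP mice, 7.17 and 7.09 in the acupoint mice and 7.36 and 7.52 in the non-acupoint mice. The part of ependymal content in the members' differences was not tested.

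Genes of the primary cilium, the intraflagellar transport and transition zone genes that most brain cells use, were read for comparison. Of 28 measured, 27 had a mean of 6 or more and 0 had an unadjusted F-test p under 0.05, against 3.87% of genes. Their median was 0.01 between MPTP and control, -0.02 between acupoint and MPTP and 0.07 between non-acupoint and MPTP. The non-acupoint group nevertheless had the higher mean for 21 of the 28 against MPTP, 0 of them at an unadjusted p under 0.05, and for 20 against control, 2 at that p, against 2.87% and 3.15% of all genes. Against control 13 were higher without overlap, against 23.5% of all genes. The difference between this list and the members was not tested.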

How the data were processed

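Striatal RNA from 8 mice (2 per group) was measured on Affymetrix whole-transcript arrays. The deposited values are log2 intensities which the authors made with RMA in Affymetrix Expression Console, per the submitters' processing notes; versions and a genome build are not given in the sources used here. RMA sets arrays to a common distribution, so differences are relative to each array's other probe sets. Of 35557 probe sets, 21789 have 1 gene symbol, 1621 have several and 12147 were unnamed; 21698 matched RefSeq by gene ID. All 21789 were fitted with limma 3.58.1 in R 4.3.3 (lmFit, eBayes, all 4 groups in one fit, 4 residual and 3.35 prior degrees of freedom), with Benjamini-Hochberg adjustment and a threshold of 0.05. The script was tested on simulated data. Replicates are separate mice. The members and all lists (other axoneme genes, ependymal, choroid plexus, striatal neuron, thalamus-septum-pallidum, testis, primary cilium) were chosen with earlier results of these data known. Genes named are brighter members with the smallest p whose groups do not overlap (up to 5 per direction and comparison), the brightest of each role, and a fixed list. Alternatives covered filters, shrinkage, centring, quantile normalisation, array weights, the replicate block, averaged probe sets, a choroid plexus covariate and leaving out each array.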

Additional observations from a re-analysis of the deposited data

How the results depend on the processing

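With 2 mice per group, 0 members passed limma's adjusted threshold in any comparison on all arrays, and this held under each alternative except those that left out MPTP mouse 2. Leaving out each array in turn, the number of probe sets called ran from 0 to 1102 for MPTP against control, 0 to 969 for acupoint against MPTP, 0 to 410 for non-acupoint against MPTP, 0 to 6 for all MPTP-treated against control and 0 to 244 in the F-test, and the number of members called from 0 to 4, 0 to 4, 0 to 5, 0 to 0 and 0 to 1. Where above 0, the highest value came without MPTP mouse 2; the fit then takes the lone mouse to vary like the other groups. Without an array the median over the 42 members ran from -0.0302 to 0.137 for acupoint against MPTP, from -0.273 to -0.0471 for acupoint against non-acupoint, from 0.15 to 0.26 for non-acupoint against MPTP and from -0.12 to -0.06 for MPTP against control. With only the compared groups in the fit, 2 probe sets and 0 members were called for non-acupoint against control. With the choroid plexus covariate the median of non-acupoint against control was 0.0231. Members whose difference changed sign with it included Cfap20, to -0.0434 in acupoint against non-acupoint, Drc7, to -0.0069, Dnaaf2, to 0.0393, and Cfap69, to -0.50, in non-acupoint against control, and Drc7, to -0.12, in MPTP against control. The causes of these shifts were not tested. With the replicate number as a block, 0 probe sets were called in every comparison, and 12 of the 42 members were higher between non-acupoint and MPTP at an unadjusted p under 0.05; mice of the same number correlated from -0.40 to 0.32 over all genes, so the numbers do not pair the mice. Only 2 arrays per group limit the precision, and dim members lie where probe signal is close to background.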
